A study of Homo sapiens with 2 samples.

Results

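The 10 mesenchymal structural genes VIM, FN1, SPARC, CCDC80, POSTN, LOX, THY1, PDGFRB, TAGLN and ACTA2 were examined for chromatin accessibility, among 19955 protein-coding genes in all. Members were the ATAC-seq peaks that lay in the body of one of these genes or within 50 kb of any of its annotated start sites, in hg38 with GENCODE release 44. On chromosomes 1 to 22 and X this gave 61 peaks of 67868 for No gRNA and 66 of 68238 for All gRNA, over regions that add up to 1260 kb.

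Both libraries were made from SUM159, an established triple negative breast cancer cell line. In ATAC-seq the Tn5 transposase cuts DNA where chromatin is open and tags the ends for sequencing. The cells of both libraries had been transduced with pLV-KRAB, a lentiviral vector for dCas9-KRAB, a Cas9 that does not cut, fused to a repressor domain. Cells of the No gRNA library had this vector and no targeting guide RNA, and cells of the All gRNA library the vector and 4 guides to the promoter of ZEB1, a transcriptional repressor that binds E-boxes and drives the mesenchymal state. There was 1 library for each condition, of transduced cell populations, so that conditions could not be tested against each other, p-values are absent, and each difference is one between 2 libraries. The comparison asked how accessibility at genes of the mesenchymal state differed when ZEB1 was targeted. Peaks mark open chromatin and not RNA, and transcript levels were not analysed here.

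Mesenchymal cells are held together less by junctions between cells than by a fibrous matrix that they secrete and pull on. The matrix is built from glycoproteins such as fibronectin and from collagens, which enzymes of the lysyl oxidase family crosslink, and cells grip it through surface receptors that connect to actin and to vimentin filaments inside. VIM encodes vimentin, the intermediate filament protein widely used as a marker of mesenchymal cells. FN1 encodes fibronectin, SPARC a secreted collagen-binding protein, POSTN the matricellular protein periostin and CCDC80 a secreted protein of the matrix. LOX encodes lysyl oxidase, THY1 a surface glycoprotein anchored by a lipid, and PDGFRB a receptor tyrosine kinase for platelet-derived growth factors. TAGLN encodes the actin-binding protein transgelin and ACTA2 the smooth muscle alpha actin, both used as markers of smooth muscle and myofibroblasts.

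A peak's height is given as the pileup at its summit, the number of extended reads stacked there, which was solved from the fold and the p-value in the deposited lists. Library totals were not used here. The recovered depth of All gRNA was 0.743 times that of No gRNA, and a ratio of heights is All gRNA over No gRNA divided by this value. Its 95% interval (exact, Clopper-Pearson) covers counting error only. On this scale the median of all 48041 one-to-one shared peaks was 0.928, a log2 ratio of −0.11, and single values below should be read against that shift. Promoter peaks, within 4000 bp of any start site, were found in both libraries at all 4 genes looked at as marks of a claudin-low mesenchymal line (VIM, CD44, AXL and CAV1). By the same rule 7 of 8 claudin and luminal genes had a promoter peak, at CLDN4, CDH1, ESR1 and PGR in No gRNA only and over 200 to 259 bp, as did both endothelial genes, PECAM1 and CDH5, and neither blood gene, PTPRC and CD3E. Nearer to the start, no peak lay within 1000 bp of the main start site of 7 of the 8 claudin and luminal genes, GATA3 being the exception, or of the blood and endothelial genes, whereas all 4 claudin-low genes had one there, with pileups of 22 to 102 in No gRNA and 9 to 62 in All gRNA.

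The DNA under the peaks that differed most is shown first. Unless stated, each window holds 201 bases of hg38 centred on the No gRNA summit, written 5′ to 3′ on the strand of the gene. Capitals mark matches to CAGGTG (the E-box bound by ZEB1), CAGCTG (a comparison E-box), TGANTCA (AP-1) or GGAATG (TEAD), searched on both strands. Windows without capitals hold none of these. The first 3 windows are the shared peaks called lower in All gRNA, 2 in CCDC80 introns and 1 upstream of POSTN, at chr3:112629638-112629838, chr3:112647246-112647446 and chr13:37617408-37617608, all on the minus strand.
CCDC80 intron, first peak: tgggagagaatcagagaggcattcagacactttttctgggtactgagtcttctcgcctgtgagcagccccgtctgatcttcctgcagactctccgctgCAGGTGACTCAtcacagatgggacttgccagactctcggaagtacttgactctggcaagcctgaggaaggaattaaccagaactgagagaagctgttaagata
CCDC80 intron, second peak: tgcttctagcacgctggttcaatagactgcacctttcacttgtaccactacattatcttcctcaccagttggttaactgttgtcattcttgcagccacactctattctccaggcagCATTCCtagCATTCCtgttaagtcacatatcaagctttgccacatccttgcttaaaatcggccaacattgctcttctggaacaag
POSTN upstream peak: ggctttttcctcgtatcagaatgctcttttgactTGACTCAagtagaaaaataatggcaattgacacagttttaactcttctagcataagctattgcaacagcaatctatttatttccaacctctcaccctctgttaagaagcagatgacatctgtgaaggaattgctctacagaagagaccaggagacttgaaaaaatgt

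Next come the 105 bases upstream of the outermost LOX start (chr5:122078414-122078518, minus strand), under a start site peak without a partner in All gRNA, and 201 bases at the FN1 start peak (chr2:215436131-215436331, minus strand), which was divided in All gRNA. The last are 29 bases under the exon peak of THY1 (chr11:119417928-119417956, minus strand), present in both libraries and shown for its motifs.
LOX upstream: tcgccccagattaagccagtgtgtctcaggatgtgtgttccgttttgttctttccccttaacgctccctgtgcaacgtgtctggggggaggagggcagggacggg
FN1 start: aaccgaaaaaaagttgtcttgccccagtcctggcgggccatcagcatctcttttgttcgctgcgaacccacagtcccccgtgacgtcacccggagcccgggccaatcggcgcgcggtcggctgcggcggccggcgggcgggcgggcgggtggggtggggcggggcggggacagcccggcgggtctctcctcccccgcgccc
THY1 exon: catgtctgcTGACTCACCTGgctggaaca

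As a group the 10 genes kept most of their peaks. Of the 61 No gRNA peaks, 12 had no overlapping All gRNA peak (19.7%, exact 95% interval 10.6 to 31.8), against 24.7% of all No gRNA peaks. Of the 66 All gRNA peaks, 12 had no partner in No gRNA (18.2%, 9.76 to 29.6), against 23.8% of all All gRNA peaks. Both shares were near those of the whole lists. The peaks without a partner were low, with median pileups of 10.5 in the No gRNA and 8 in the All gRNA list, whereas those with a partner had medians of 30 and 18.5. By place, 4 of the 12 No gRNA peaks within 1000 bp of a gene's own start site lacked a partner, and 1 of 11 did in All gRNA. Over all peaks within 1000 bp of a protein-coding start site the shares were 13.2% and 8.08%, a comparison added after the data were seen. The 4 were 3 peaks at LOX and 1 at SPARC, and the All gRNA peak was again at LOX. Among No gRNA peaks with a pileup of at least 20, a limit set after the data were seen, 3 of 37 member peaks lacked a partner, against 5.76% of such peaks in the whole list. These 3 were 2 SPARC peaks and 1 CCDC80 peak.

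**Figure D1:**
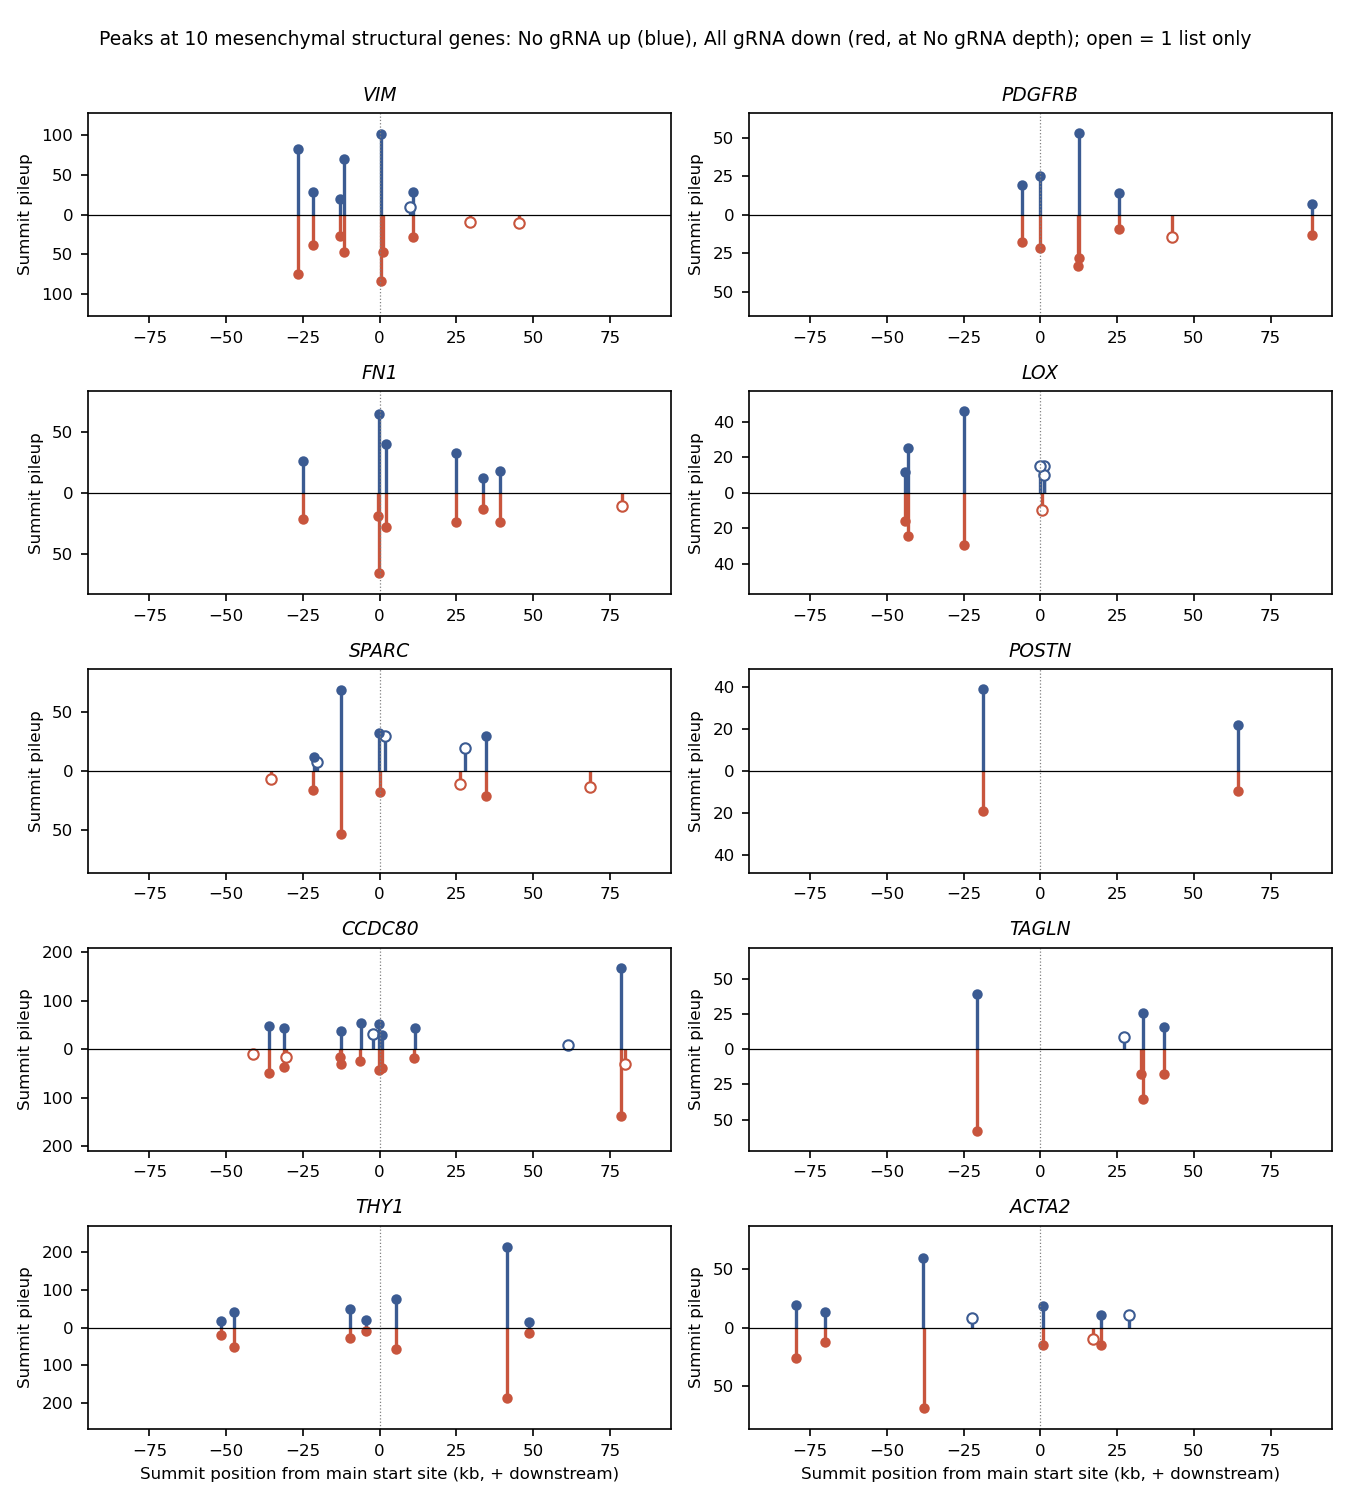
Summit pileup of every peak in the regions of the 10 genes against the distance of its summit from the main start site (kb, positive downstream). No gRNA peaks point up at their own depth and All gRNA peaks point down, scaled to the No gRNA depth, and open circles are the 12 peaks of each list without a partner; LOX has open circles in both directions at its start, and TAGLN and POSTN have no peak there.

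The shared peaks differed little in height and width as a group. Exactly 1 partner was present for 44 No gRNA peaks. Of these pairs 27 had a ratio below 1 (61.4%, 45.5 to 75.6), against 58.1% of all pairs. The median log2 ratio was −0.16 for the members and −0.11 for all pairs, and the ratios ran from 0.407 to 1.92. Scaled by the median of all pairs, which by construction splits all pairs evenly around 1, 54.5% of member pairs were below it. A pair was called when its ratio was beyond 2-fold and its interval excluded 1. By this rule 3 member pairs were lower in All gRNA, against 3.27% of all pairs, and 0 were higher, against 2.44%. All gRNA peaks were narrower in 29 pairs and wider in 15, against 60.7% narrower over all pairs, and the median ratio of widths was 0.936 for members and 0.946 for all pairs.

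**Figure D2:**
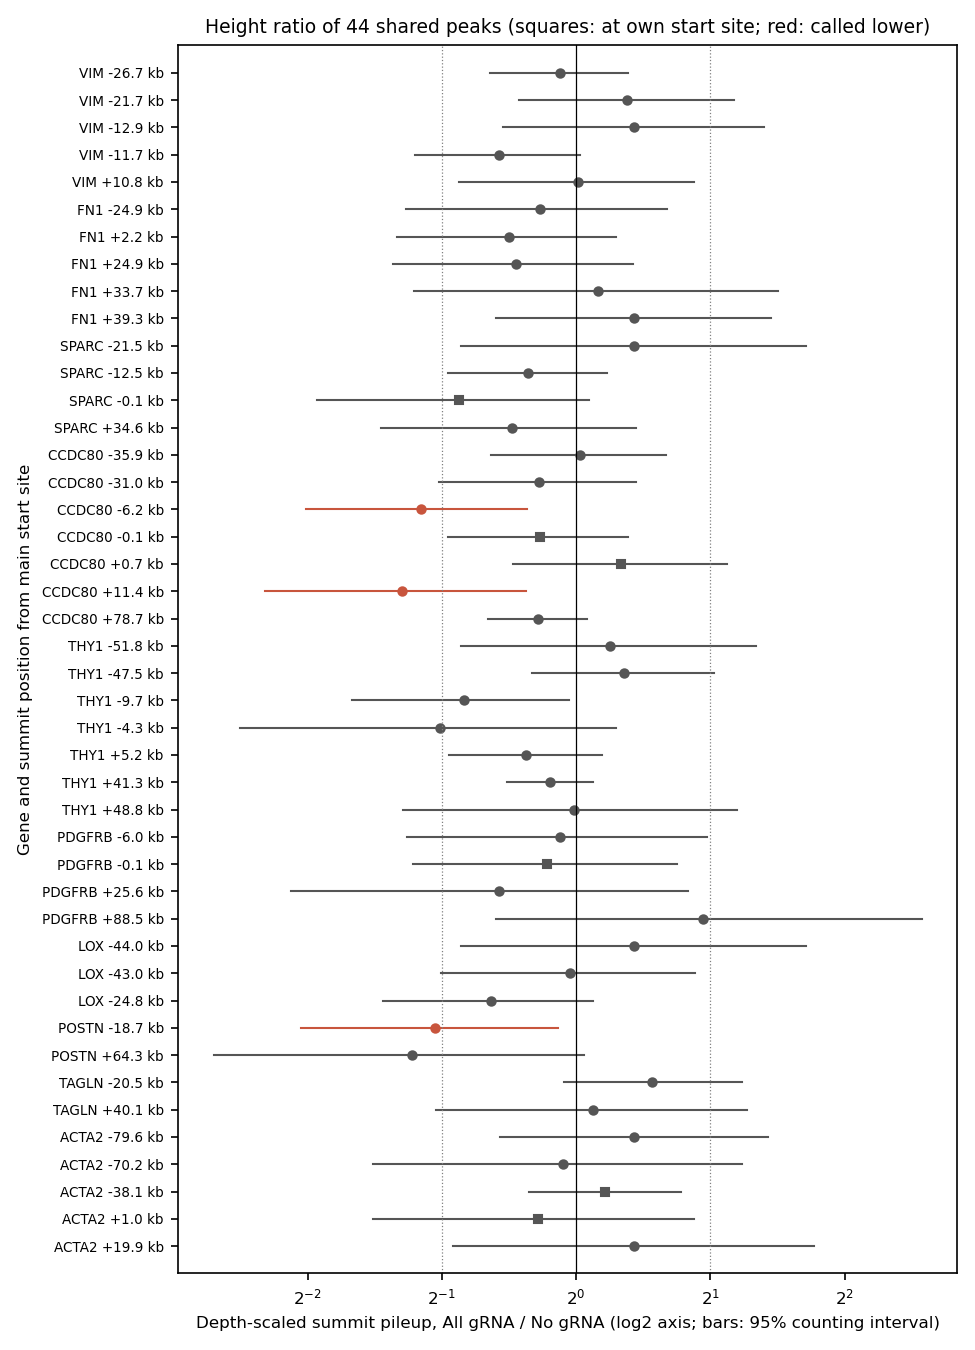
Depth-scaled ratio of summit pileup, All gRNA over No gRNA on a log2 axis, for the 44 one-to-one shared peaks, ordered by gene and by distance of the No gRNA summit from the main start site. Bars are exact 95% counting intervals, squares lie within 1000 bp of an own start site, and the 3 red points, 2 at CCDC80 and 1 at POSTN, are the pairs called lower.

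The ratio moved with peak strength in the whole data set, which bears on how the strong peaks of these genes are read. In 5 classes of summed pileup from weak to strong, the median log2 ratio of all pairs was 0.07, −0.01, −0.08, −0.17 and −0.23. The member pairs in the same classes, 5, 9, 11, 12 and 7 in number, had medians of 0.17, −0.02, −0.22, −0.27 and −0.28. The members followed the same order from class to class.

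VIM, the filament gene, kept its start site peak, which was divided in All gRNA. VIM lies at chr10:17228241-17237593 on the plus strand. In No gRNA a single peak of 1247 bp, chr10:17228201-17229447, covered the start with a summit pileup of 102. In All gRNA the same stretch held a peak of 590 bp with a pileup of 62 and a peak of 459 bp with a pileup of 35. Comparing the highest summits, a comparison added after the data were seen, gave 0.818 (0.587 to 1.13), an interval that holds 1. Length covered within 4000 bp of any VIM start site went from 1247 bp without guides to 1049 bp with them. The strongest flanking peak lay at the start of TRDMT1, the neighbour upstream, with pileups of 82 and 56 and a ratio of 0.919 (0.642 to 1.31). A peak in an intron of the antisense gene VIM-AS1, chr10:17216268-17216856, had 70 and 35, a ratio of 0.673 (0.435 to 1.02). Peaks without a partner were weak at this gene, the strongest being a No gRNA peak of pileup 10 downstream of VIM and an All gRNA peak of pileup 8 at 40410 bp from the nearest VIM start. Summed over the 5 pairs of the VIM region, which gives the pooled ratio used below, the pileups were 229 and 160 and the ratio 0.94 (0.763 to 1.16).

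Among the matrix genes, FN1 showed the same division of its start site peak and no called pair. FN1 lies at chr2:215360440-215436073 on the minus strand. Its start peak, chr2:215435965-215436874, had a pileup of 65 over 910 bp without guides. With guides it was replaced by a peak of pileup 49 over 456 bp and a peak of pileup 14 over 211 bp. The ratio of the highest summits was 1.01 (0.686 to 1.49), with the depth-scaled heights nearly equal. Within 4000 bp of FN1 start sites, covered length was 2187 bp without guides and 1712 bp with them. Of the intronic peaks, that at chr2:215433733-215434105, which holds CAGGTG, had pileups of 40 and 21 and a ratio of 0.706 (0.396 to 1.23). The one at chr2:215396618-215397135 had 18 in both libraries, a ratio of 1.35 (0.66 to 2.74). The FN1 region lost no No gRNA peak, and its All gRNA peak without a partner was weak, with a pileup of 8, downstream of the gene. Division of 1 No gRNA peak into a pair of All gRNA peaks was found at 5 of the 61 member peaks, the others being in the regions of CCDC80, PDGFRB and TAGLN, and the reverse at 0. In the whole lists the share with more than 1 partner was 2.42% for No gRNA and 1.12% for All gRNA.

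SPARC had 1 peak near its start sites in All gRNA and 2 in No gRNA. The gene lies at chr5:151661096-151686975 on the minus strand. At the main start, the No gRNA peak chr5:151686746-151687446 had a pileup of 32 over 701 bp and its All gRNA partner 13 over 535 bp, a ratio of 0.547 (0.263 to 1.07). The interval reaches above 1, so that this difference was within counting error. At an internal start site, with the summit on CAGCTG and 6 bp from the start, the No gRNA peak chr5:151685050-151685386 had a pileup of 30 and no partner. At the All gRNA depth this would be 22.3, where 10 would have been enough for a call at that background. A No gRNA peak downstream of the gene, chr5:151659040-151659485, had a pileup of 20 and no partner either, which scales to 14.9 against a limit of 5. In the other direction, the 3 All gRNA peaks without a partner at SPARC had pileups of 5, 8 and 10, which scale to 6.73, 10.8 and 13.5 at the No gRNA depth, against limits of 5, 5 and 9. Scaled pileups were thus above the limit in both directions. The highest SPARC peak, chr5:151699203-151699612 in an intron of the non-coding gene CLMAT3 upstream, was present in both with 69 and 40, a ratio of 0.78 (0.515 to 1.17). Covered promoter length was 1038 and 535 bp in the respective libraries, and the pooled ratio 0.762 (0.573 to 1.01).

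CCDC80 held 2 of the 3 called pairs, both in introns, and the ratios at its start site had intervals that hold 1. This gene had already been examined in these libraries by the study, so its values are no independent evidence. CCDC80 lies at chr3:112596797-112649530 on the minus strand. The peak at the main start, chr3:112641070-112641416, had pileups of 52 and 32, a ratio of 0.828 (0.516 to 1.31). Its neighbour at chr3:112640339-112640778 had 30 and 28, a ratio of 1.26 (0.723 to 2.18). A difference at the start peaks was not detectable at this depth. The intronic peak chr3:112629483-112629930, 11405 bp downstream of the main start, fell from a pileup of 43 to 13, a ratio of 0.407 (0.201 to 0.771), the lowest of all member pairs. The intronic peak chr3:112646883-112647548, upstream of the main start but inside the gene body of longer transcripts, fell from 54 to 18, a ratio of 0.449 (0.248 to 0.777). Its width fell from 666 to 355 bp, whereas the first of these peaks kept its width, at 448 and 460 bp. A further intronic peak, chr3:112643072-112643311, had a pileup of 32 in No gRNA and no All gRNA partner, although 23.8 at the All gRNA depth would have passed the limit of 12. An All gRNA peak without a partner lay at the start of ATG3, chr3:112561269-112561619, with a pileup of 23. At the No gRNA depth this would be 31, against a limit of 21. It bordered a strong shared peak at the start of SLC35A5, chr3:112561654-112562678 in No gRNA, which had pileups of 167 and 102. Scaled by the median of all pairs, the called pairs had 0.438 (0.216 to 0.831) and 0.483 (0.267 to 0.837), and scaled by pairs of their own strength class 0.459 and 0.506. Only the first stayed beyond 2-fold under every scaling. Over its 7 pairs CCDC80 had a pooled ratio of 0.788 (0.673 to 0.921). The second called peak and the intronic peak without a partner had summits 2101 and 1878 bp from an own start site. Both thus fall under the 4000 bp promoter rule. By that rule promoter peaks numbered 4 without guides and 3 with them, and covered length went from 1693 to 1121 bp.

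At POSTN no peak was called near a start site in either library, and 1 of its 2 distant peaks was called lower in All gRNA. POSTN lies at chr13:37562583-37598844 on the minus strand, and its region of 134 kb held only 2 peaks in each library. The peak 18664 bp from the nearest start, upstream, chr13:37617241-37617822, had pileups of 39 and 14, a ratio of 0.483 (0.242 to 0.909). Its width was nearly the same, at 582 and 572 bp. The peak downstream of the gene, chr13:37534314-37534655, had 22 and 7, a ratio of 0.428 (0.154 to 1.04). Under the other scalings the upstream peak had 0.521 and 0.51, which is no longer beyond 2-fold. The pooled ratio was 0.463 (0.268 to 0.772), at percentile 0.127 among protein-coding genes with 2 or more pairs, and rests on these 2 pairs.

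At LOX, the crosslinking enzyme gene, the peaks without a partner all lay near its start sites. LOX lies at chr5:122063195-122078413 on the minus strand. No gRNA had 3 peaks near its start sites, chr5:122078344-122078616 with a pileup of 15, chr5:122077141-122077381 with 10 and chr5:122076776-122077080 with 15. None had a partner. In their place All gRNA had 1 peak of 204 bp with a pileup of 7, chr5:122077591-122077794, which itself overlapped none of the 3 and scales to 9.42 at the No gRNA depth, against a limit of 6. At the All gRNA depth the 3 pileups would be 11.1, 7.43 and 11.1, against a limit of 6 for each, so that the middle peak was close to what could be called and the others were above it. Covered length near LOX start sites went from 819 to 204 bp. The strong peak 24630 bp upstream of the nearest LOX start, chr5:122102639-122103223, was kept, with pileups of 46 and 22 and a ratio of 0.644 (0.369 to 1.09). The pooled ratio over the 3 shared peaks was 0.843 (0.584 to 1.21).

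Of the surface genes, THY1 had no peak at its own start sites in either library. THY1 lies at chr11:119415476-119424985 on the minus strand, and the nearest No gRNA summit was 2501 bp from a start site. Its gene body peak, chr11:119417425-119418141 in an untranslated exon, had pileups of 75 and 43, a ratio of 0.772 (0.518 to 1.14). All 7 THY1 peaks had a partner. The peak in an intron of USP2-AS1 at chr11:119432495-119433112 had 48 and 20, a ratio of 0.561 (0.315 to 0.963), the only other interval below 1 among the members, but not beyond 2-fold. The highest member peak of all lay in this region, at the start of USP2, with 214 and 139 and a ratio of 0.874 (0.701 to 1.09).

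PDGFRB kept its start site peak. The gene lies at chr5:150113839-150155872 on the minus strand, and its start peak, chr5:150155688-150156132, had pileups of 25 and 16, a ratio of 0.861 (0.43 to 1.68). The strongest peak was intronic, chr5:150142998-150143750, with a No gRNA pileup of 53, divided in All gRNA into peaks of 21 and 25, with a ratio of the highest summits of 0.635 (0.378 to 1.04). An All gRNA peak without a partner, of pileup 11, lay near a start of CSF1R, the receptor gene next to it. No PDGFRB peak was lost. Covered length near start sites went from 680 to 872 bp, which includes 290 bp of the peak near CSF1R. The start peak itself went from 445 to 377 bp.

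The regions of the contractile genes had the highest pooled ratios of the 10, with intervals that hold 1. Much of the height pooled in them lay at or near starts of other genes. TAGLN lies at chr11:117199370-117207464 on the plus strand. No peak of either library lay within 4000 bp of its start sites, and the peaks of its region sat at or near starts of SIDT2, PCSK7 and RNF214. The peak at the SIDT2 start had pileups of 39 and 43, a ratio of 1.48 (0.939 to 2.35). The pooled ratio was 1.37 (0.927 to 2.03) over 2 pairs, with an interval that holds 1. The second pair, 5229 bp from the RNF214 start, had 16 and 13, a ratio of 1.09 (0.484 to 2.42). A No gRNA peak at a PCSK7 start, with a pileup of 9, had no partner.

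ACTA2 lies at chr10:88935074-88991339 on the minus strand. Near its main start the peak chr10:88951644-88952172, in an intron, had 18 and 11, a ratio of 0.822 (0.351 to 1.84). A distal ACTA2 start is next to the start of FAS, the death receptor gene, and the peak there, chr10:88990155-88991171, had 59 and 51, a ratio of 1.16 (0.784 to 1.72). Its All gRNA partner was wider, at 1258 bp against 1017 bp. Peaks without a partner were weak, at most 11 in No gRNA and 7 in All gRNA. The pooled ratio was 1.13 (0.861 to 1.49), and the peak at the FAS start gave 59 of its 120 No gRNA pileups.

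Set side by side, pooled ratios ran in the order POSTN (0.463), SPARC (0.762), CCDC80 (0.788), LOX (0.843), THY1 (0.858), FN1 (0.866), VIM (0.94), PDGFRB (0.952), ACTA2 (1.13) and TAGLN (1.37). Neighbours in this order had overlapping intervals. These ratios hold one-to-one pairs only. The divided start peaks of VIM and FN1, the divided PDGFRB intron peak and the LOX start peaks are thus left out. Peaks at the starts of other genes are included. The USP2 peak gave 214 of the 428 pooled No gRNA pileups at THY1, and the SLC35A5 peak 167 of 439 at CCDC80. The interval lay below 1 at 2 of the 10 genes, CCDC80 and POSTN, against 29.5% of protein-coding genes with 2 or more pairs, and above 1 at 0, against 1.86%. The pooled ratio was added after the data were seen. Divided by the median of all pairs, VIM and PDGFRB moved to the other side of 1, at 1.01 and 1.03.

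By covered length, 7 of the 10 regions were shorter in All gRNA, against 68.9% of protein-coding gene regions, and the sum over the regions went from 28502 to 26381 bp. Covered length was not scaled for the lower depth of All gRNA. Near start sites, 5 of the 8 genes with a promoter peak were shorter, against 67.9% of such genes. These were VIM, FN1, SPARC, CCDC80 and LOX. The other 3, THY1, PDGFRB and ACTA2, were longer, against 31.7%. The added length lay away from their main starts. At ACTA2 the peak at the FAS start went from 1017 to 1258 bp and that near the main start from 529 to 478 bp. At PDGFRB the main start peak went from 445 to 377 bp, and All gRNA had a further 290 bp peak near a CSF1R start. At THY1 the peaks lay more than 1000 bp from any own start. None of the 8 had a promoter peak in No gRNA only (3.8% of genes with a promoter peak) or in All gRNA only (3.33%). The longer promoters depended on the window, since within 1000 bp of start sites, and equally with the main start alone, 7 promoters were shorter and 0 longer. The related genes described below had 24 shorter and 8 longer in each of these settings. Shares of all protein-coding promoters are not given for them, so the 7 cannot be set against all genes.

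**Figure D3:**
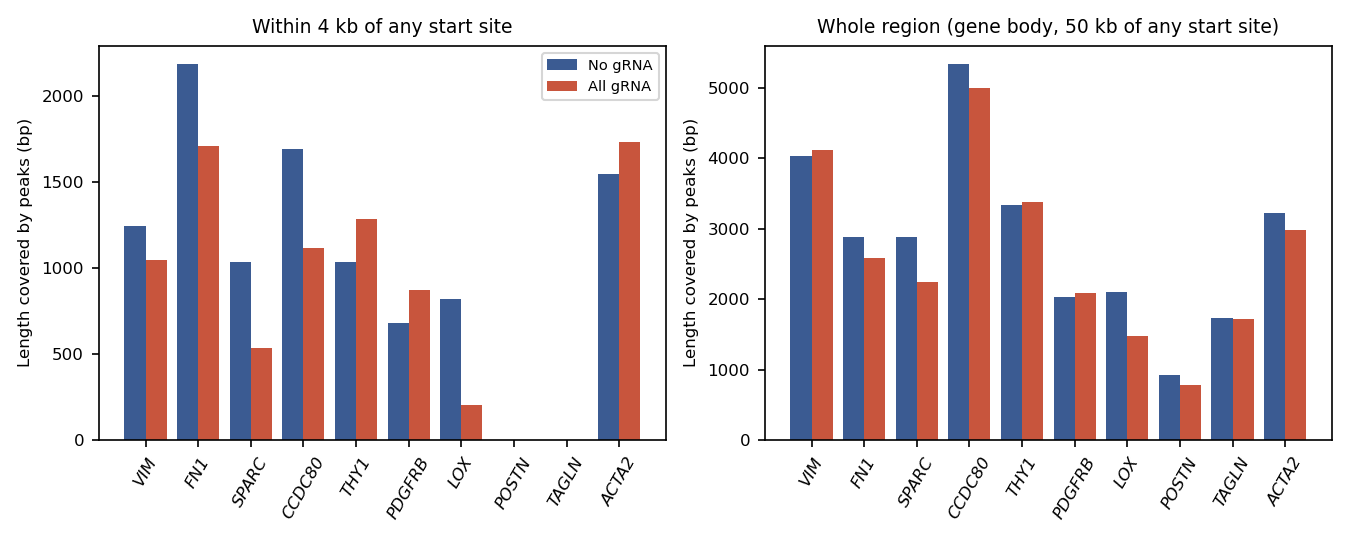
Length covered by peaks (bp) at each of the 10 genes in No gRNA (blue) and All gRNA (red), within 4 kb of any start site (left) and over the whole region (right). Near its start sites LOX goes from 819 to 204 bp, and POSTN and TAGLN have no bar there.

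Other genes of the same roles, listed by role and not by their values, were read in the same way. Of these 41 genes, 34 had a promoter peak, with a covered length shorter in All gRNA at 25 and longer at 9, a share shorter of 73.5% beside the 67.9% of all genes. The median difference, All gRNA less No gRNA, was −162 bp against −71 bp over all protein-coding genes with a promoter peak. In their regions 15 of 238 distinct pairs were called lower (6.3%) and 3 higher (1.26%), beside 3.27% and 2.44% of all pairs. Interval counts of the pooled ratio went the same way, with 17 of 39 regions below 1 (43.6%, beside 29.5% of all genes) and 0 above (beside 1.86%). The shares of the related genes are given without intervals and were not matched for peak strength. Whether they exceed those of all genes was not tested.

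Among 15 matrix glycoprotein and proteoglycan genes, 9 were shorter and 3 longer. FBLN1, which encodes fibulin 1, went from 2240 to 1375 bp, with 3 called lower pairs in its region and a pooled ratio of 0.649 (0.518 to 0.809). TNC, the gene of tenascin C, went from 2099 to 1353 bp with a pooled ratio of 1.03 (0.825 to 1.28). ELN, which encodes elastin, had 276 bp of promoter peaks in No gRNA only, and DCN, which encodes the proteoglycan decorin, 553 bp in All gRNA only. Among the 6 crosslinking and collagen-modifying enzymes, LOXL1 went from 1353 to 686 bp and LOXL2 from 2062 to 1514 bp. These 2 relatives of LOX were named for having the largest differences of their role. LOXL3 and LOXL4 were longer, at 1065 and 1213 bp and at 520 and 578 bp. The pooled ratio was 0.895 (0.759 to 1.05) at LOXL1 and 0.676 (0.574 to 0.794) at LOXL2. At LOXL3 and LOXL4 it was 0.794 (0.684 to 0.921) and 0.824 (0.6 to 1.12), so that length and height did not go together.

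Of the other intermediate filament genes, SYNM went from 860 to 599 bp and NES, which encodes nestin, had 200 bp in All gRNA only. DES, the muscle filament gene, had no promoter peak in either library. Among 8 contractile genes 5 were shorter and 1 longer. CNN1 and TPM1, which encode calponin and tropomyosin, went from 798 to 337 bp and from 1340 to 1083 bp, and MYL9, a myosin light chain gene, had 200 bp in No gRNA only. The pooled interval lay below 1 at 4 of these 8 genes and above 1 at 0, beside 29.5% and 1.86% of all genes. MYL9, with 1 pair, had no interval. The higher ratios at TAGLN and ACTA2 were thus not shared by their role. Of the surface genes, 6 were shorter and 2 longer, the largest differences being those of PDPN, which encodes podoplanin, from 1356 to 780 bp, and of ITGA5, the fibronectin receptor subunit, from 1367 to 949 bp.

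For each motif searched within 100 bp of the member summits, the share of all peaks lay inside the exact interval of the members' share. The ZEB1 E-box lay within 100 bp of the summit at 11 of the 61 No gRNA member peaks (18.0%, 9.36 to 30.0), against 11.6% of all No gRNA peaks, and at 11 of the 66 All gRNA member peaks (16.7%, 8.62 to 27.9), against 13.1%. Within 50 bp of the summit it lay at 8 of the 61 No gRNA member peaks (13.1%, 5.84 to 24.2), an interval just above the 5.7% of all No gRNA peaks. In All gRNA it lay at 7.58% of member peaks (2.51 to 16.8), against 6.72%. For every other motif and library at 50 bp, the share of all peaks lay inside the interval. The comparison E-box was at 16.4% and 18.2%, against 12.4% and 12.0% of all peaks. AP-1 matched 31.1% and 30.3%, against 30.3% and 31.2%, and TEAD 16.4% and 13.6%, against 14.6% and 14.1%. The CArG box, the site of serum response factor at smooth muscle genes, was at 2 peaks of each list, in the regions of VIM and FN1 (3.28% and 3.03%, against 1.07% and 1.01% of all peaks). No CArG match was found at TAGLN or ACTA2 peaks. Among member pairs, the 7 with a ZEB1 E-box had a median ratio of 0.921 and the 37 without 0.874, and over all pairs the medians were 0.992 and 0.921.

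In the first CCDC80 window above, the E-box and the AP-1 match share their bases, the last letters of CAGGTG opening TGACTCA. The same overlap on the other strand stands near the summit of the THY1 exon peak. Looked for after the data were seen, this arrangement occurred within 100 bp of the summit at 0.339% of all No gRNA peaks and 0.441% of all All gRNA peaks. Among the members these were the only cases in either list. The ratios at these places were 0.407 (0.201 to 0.771) and 0.772 (0.518 to 1.14), with intervals that overlap.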

How the data were processed

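ATAC-seq was measured in 1 No gRNA and 1 All gRNA library of SUM159 cells. Reads were trimmed with fastp, mapped to hg38 with Bowtie2 and cleared of mitochondrial reads, excluded regions and duplicates by the authors, who called peaks in each library separately with MACS2 without a control. Per peak, the deposited files give a score, a fold enrichment (a ratio), a −log10 p-value, a −log10 q-value and the summit position. The deposited score was not used.

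The fold is (pileup + 1) / (background + 1) and the p-value a Poisson tail, so both were solved, with a whole-number pileup at 100% of the peaks of each list. The procedure was checked on simulated peaks. The lowest backgrounds, 0.652 and 0.484, gave the relative depth of 0.743. Neighbouring read ends are not independent molecules, so that intervals cover counting error only. Peaks were paired by an overlap of at least 1 bp. The call limit is the smallest pileup that reaches the lowest p-value of the other list at the scaled background. Promoters were 4000 bp either side of every start site. The analysis used Python 3.11.15, numpy 2.4.6, pandas 2.3.3 and scipy 1.17.1, with GENCODE release 44.

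All 10 genes are named, each with the peak nearest its main start, its called pairs and its strongest peak without a partner in each list. Of the related genes, those with a promoter peak in 1 list only and the 2 per role with the largest difference are named. LOXL3, LOXL4, DES and further peaks were named after their values were seen. The genes, lists and rules were chosen with earlier results of these data known. The alternatives were other overlaps, q-value thresholds, windows, scalings and motif distances.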

Additional observations from a re-analysis of the deposited data

How the results depend on the processing

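Recomputing gave 50 values, of which 36 changed little (a count by at most 1.5 times, a share within its interval), 14 moved and 0 reversed. No gRNA peaks without a partner, 12 in the report, numbered 3 with a −log10 q of at least 10 and 25 in windows of 100 kb. For All gRNA peaks, also 12, the numbers were 4 and 0 with a −log10 q of at least 5 and 10, 21 with an overlap of 50% of both peaks, and 5 and 19 in windows of 10 and 100 kb. Longer promoters fell from 3 to 0 within 1000 bp of start sites, to 0 with the main start alone and to 1 with a −log10 q of at least 5, while shorter ones rose from 5 to 7 in each of these settings. The shares of all promoters are not given for these settings. Scaled by strength class, 1 pair stayed lower in place of 3. With motifs within 50 bp of the summit, AP-1 was at 14.8% of No gRNA and 15.2% of All gRNA member peaks and the ZEB1 E-box at 7.58% of All gRNA and 13.1% of No gRNA member peaks. Stricter thresholds and narrower windows leave fewer peaks by construction; for the other changes the cause was not tested. Depth limits what can be said of the weakest peaks, such as the No gRNA peak of pileup 10 at VIM, 7.43 at the All gRNA depth against a limit of 7. No paired analysis was possible because there was 1 library for either condition. Pooled ratios, highest summits of divided peaks, the pileup limit of 20, the shares of all peaks near start sites and of divided peaks, and the overlapping motif were added after seeing the data.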
